A study of Mus musculus with 24 samples.

Results

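The 5 genes described here are the ligand, receptors and growth factors through which bone-forming cells support osteoclasts, the cells that resorb bone. They are *Tnfsf11* (RANKL), *Tnfrsf11b* (osteoprotegerin, OPG), *Tnfrsf11a* (RANK), *Csf1* (macrophage colony-stimulating factor) and *Il34* (interleukin 34). They were taken by symbol from the 55335 genes counted in each library, each symbol had a single entry, and all 5 passed the filter on low counts that left 20434 genes for testing.

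The measurements were bulk RNASeq read counts from cultured mouse OBs (osteoblasts, the cells that build bone). OBs came from the parietal bones of pups 4 to 5 days old. Cells of several pups of 1 genotype were pooled, so the spread between libraries does not include the spread between animals. The methods describe wells from 2 experiments, which used different litters and were seeded and kept at first under different conditions (cell density, oxygen), and 3 wells per genotype and day in all. The labels list 4 libraries per genotype and day and do not say which experiment each came from, so the 4 may not be independent cell pools. RNA was taken on days 8, 14 and 21 of osteogenic culture, with 4 libraries per genotype and day and 24 in all. WT cultures carried normal collagen genes. Het cultures carried 1 copy of the G610C mutation, in which cysteine replaces a glycine of the triple helix in the proα2(I) chain encoded by *Col1a2*, a mouse model of osteogenesis imperfecta. Both genotypes were on the C57BL/6J background and were grown in αMEM with 10% FBS and ascorbic acid 2-phosphate. The mutation is in the germline, so every cell of a Het culture carried it, including cells that make no collagen I.

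RANKL sits on the surface of osteoblast-lineage cells and is also released from them, and it switches on RANK on osteoclast precursors. OPG is a secreted decoy receptor that binds RANKL and keeps it from RANK, so the balance of RANKL and OPG is commonly read as the osteoclast-supporting capacity of a culture. CSF1 and interleukin 34 share the receptor CSF1R on cells of the macrophage lineage, which need its signal to survive and to become osteoclasts.

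Levels are given as RQ, a gene's counts per 1000 counts of a housekeeping reference, which is the geometric mean of *Actb*, *Actg1*, *Sdha* and *Mrfap1* in the same library. Differences are given as log2 fold changes from edgeR's quasi-likelihood test of the counts on the same scale, with the p-value adjusted over the 20434 genes tested (Benjamini-Hochberg), and "called" means an adjusted p under 0.05. Total counts ran from 17140202 to 59734231 per library. Replicate 1 of each group was the shallowest, at 17140202 to 25825762 counts, against 28159342 to 59734231 in replicates 2 to 4, and its deposited tables are named in another way. Replicate 1 also stood apart in expression. Summed RQ of 5 chondrocyte markers was 22880 in Het replicate 1 at day 14 and 1418 to 2572 in the other Het libraries of that day. Where leaving out replicate 1 changed a call or moved a value widely, the value without it is given beside the result. The OB markers *Col1a1*, *Sp7*, *Alpl* and *Ibsp* were tested in all comparisons, and the summed RQ of 10 OB markers ran from 37660 to 92540 at day 8 and from 175200 to 348600 later. Counts per gene do not show which *Col1a2* allele was read, so the genotype labels were not checked against the mutation.

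*Tnfsf11* spans chr14:78277445-78308043 on the minus strand (GRCm38, GENCODE release 21), *Tnfrsf11b* chr15:54250619-54278484 on the minus strand, *Tnfrsf11a* chr1:105780718-105847981 on the plus strand, *Csf1* chr3:107741048-107760469 on the minus strand and *Il34* chr8:110741829-110805924 on the minus strand. The 100 bases that precede the start sites of the RANK ligand, the RANK receptor and CSF1 are shown so that the core promoter elements of the members with a sequence can be read. Sequences are from RefSeq (GRCm38.p6), which matched 3 of the 5 members, and are written 5′ to 3′ on the strand of the gene. Capitals mark matches, on either strand, to the TATA box core TATAA, the CCAAT box or the GC box GGGCGG.

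Tnfsf11, chr14:78308044-78308143: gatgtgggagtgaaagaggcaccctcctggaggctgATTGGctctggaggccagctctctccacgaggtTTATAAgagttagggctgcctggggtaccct
Tnfrsf11a, chr1:105780623-105780722: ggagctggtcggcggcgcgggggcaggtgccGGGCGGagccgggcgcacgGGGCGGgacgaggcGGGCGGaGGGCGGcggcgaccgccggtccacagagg
Csf1, chr3:107760470-107760569: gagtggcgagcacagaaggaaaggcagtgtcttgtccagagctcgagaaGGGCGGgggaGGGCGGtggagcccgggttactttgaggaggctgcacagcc

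The *Tnfsf11* stretch held TATAA from 31 and 30 bases before the start, as overlapping matches on both strands, and CCAAT, read on the opposite strand as ATTGG, 64 bases before it. The *Tnfrsf11a* stretch held GC boxes 69, 50, 36 and 29 bases before the start, and the *Csf1* stretch held them 51 and 41 bases before it. Of 32851 RefSeq promoters of 300 bases (250 before and 50 after the start), 24.9% held TATAA, 37.4% CCAAT and 35.7% GGGCGG. The RUNX core TGTGGT, the cyclic AMP response element TGACGTCA and the CEBP-ATF composite TGATGCAA had no match in the 300 bases of these 3 promoters, and 16.8%, 1.79% and 0.895% of all promoters held them. These matches describe letters and were not tested for binding.

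**Figure D1:**
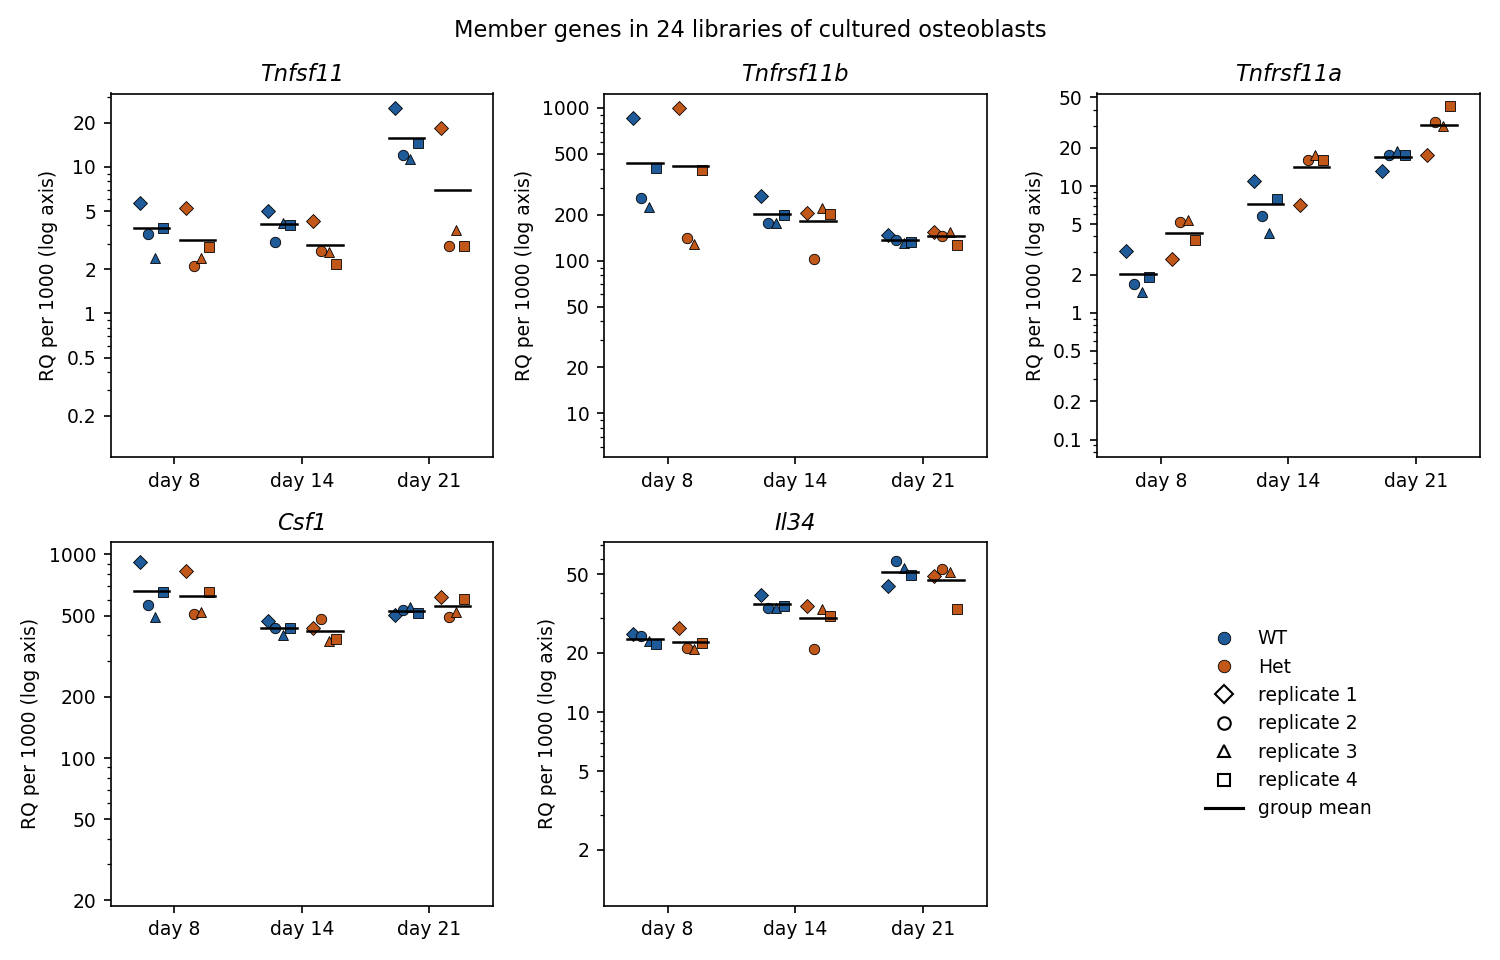
RQ per 1000 housekeeping counts (log axis) of the 5 member genes by day, with 1 point per library, blue for WT, orange for Het, the marker shape for the replicate number and a bar at the mean of 4 libraries. *Tnfsf11* was highest at day 21 in the 4 WT libraries and in Het replicate 1, *Tnfrsf11b* spread widest at day 8, and *Tnfrsf11a* rose from day to day in both genotypes.

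*Tnfsf11*, the ligand, was low through day 14 and rose at day 21, and the rise was seen in every WT library but in only 1 Het library at a like level. RQ in WT replicates 1 to 4 was 5.66, 3.51, 2.38 and 3.83 at day 8, 5.02, 3.09, 4.17 and 4.02 at day 14, and 25.3, 12, 11.3 and 14.5 at day 21. In Het replicates 1 to 4 it was 5.27, 2.09, 2.39 and 2.84 at day 8, 4.31, 2.68, 2.63 and 2.16 at day 14, and 18.5, 2.89, 3.73 and 2.88 at day 21. At day 21 Het replicate 1 lay inside the WT range and the other 3 Het libraries lay below every WT library. Within replicates 2 to 4, 25.5% of all genes had Het wholly below WT at day 21. Counts of *Tnfsf11* were few, 36 to 368 per library with a median of 77, and Het replicate 1 of day 21 had 187 against 75, 94 and 78 in the other Het libraries of that day.

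From day 14 to day 21 *Tnfsf11* rose over both genotypes together by 1.59 ± 0.350 (log2 fold change, SE, 8 libraries a day, edgeR adjusted p = 0.00274), and without Het replicate 1 of day 21 by 1.05 (adjusted p = 0.00294). Within WT the rise was 1.95 (edgeR adjusted p = 0.0165), with no overlap between the days, which held for 21.5% of all genes, and within Het it was 1.23 (edgeR adjusted p = 0.168), beside 8.45% of genes called in WT and 4.74% in Het. The WT call was lost without WT replicate 1 of day 21 or WT replicate 2 or 4 of day 14 (edgeR adjusted p = 0.0554, 0.0578 and 0.0501) and without all libraries numbered 2, 3 or 4 (edgeR adjusted p = 0.109 to 0.162), and it was 1.74 without replicate 1 (edgeR adjusted p = 2.9e-06). The Het value rested on 1 library: it was 0.14 without Het replicate 1 of day 21 and 0.35 without replicate 1 (edgeR adjusted p = 0.882 and 0.240). The change in Het minus that in WT was -0.72 ± 0.689 (SE, edgeR adjusted p = 1.00, beside 0.0% of genes called), and it was -1.82 without Het replicate 1 of day 21 (edgeR adjusted p = 1.00) and -1.39 ± 0.266 without replicate 1 (SE, edgeR adjusted p = 0.0658). None of the 3 passed the threshold, and the fit without only Het replicate 1 of day 21 kept WT replicate 1 of that day. At an unadjusted p under 0.05, 452 genes passed for that difference in the fit of all libraries, and DESeq2's Wald test also called 0. From day 8 to day 14 the log2 fold change was -0.00 ± 0.347 (edgeR adjusted p = 0.995).

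Between the genotypes, *Tnfsf11* at days 14 and 21 had a mean RQ of 4.98 ± 5.51 (SD) over 8 Het libraries and 9.93 ± 7.59 over 8 WT libraries, and Het was lower in all 8 pairs of libraries with the same number and day. The log2 fold change of -0.85 ± 0.345 (SE, 95% interval -1.57 to -0.13) was not called in the fit without a replicate block (edgeR adjusted p = 0.101). With the replicate number as a block (24.5% of genes called) it was -1.0 (edgeR adjusted p = 0.00202), without replicate 1 (41.9% of genes called) it was -1.30 (edgeR adjusted p = 9.79e-07), and without the Het replicate 1 of day 21 alone it was -1.40 (edgeR adjusted p = 0.000504). The fit without that Het library alone kept WT replicate 1 of day 21, the highest WT library (RQ 25.3). Replicate 1 was thus unbalanced between the genotypes in it. The ratio of mean RQ in Het to WT was 0.752 in replicate 1 and 0.346 in replicates 2 to 4.

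By day, the *Tnfsf11* log2 fold change of Het against WT was -0.29 ± 0.489 at day 8, -0.49 ± 0.497 at day 14 and -1.21 ± 0.480 at day 21 (SE, edgeR adjusted p = 0.928, 0.620 and 0.219). At day 14 the fit without replicate 1 (29.1% of genes called) gave -0.60 (edgeR adjusted p = 0.0295). At day 21 the block (4.67% of genes called) gave -1.48 (edgeR adjusted p = 0.00557). The day 21 fit without replicate 1 (24.3% of genes called) gave -1.99 (edgeR adjusted p = 2.47e-06). Without Het replicate 1 of day 21 alone it was -2.31 (edgeR adjusted p = 0.00111). That fit kept WT replicate 1 of day 21, the highest WT library (RQ 25.3), so replicate 1 was unbalanced between the genotypes. The fold change at days 14 and 21 minus that at day 8 was -0.55 ± 0.599 (SE, edgeR adjusted p = 1.00), and -0.89 without replicate 1 (edgeR adjusted p = 0.0360), beside 0.171% and 4.72% of genes called. In bulk RNA, fewer cells of a type and less RNA per cell cannot be told apart.

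The summed level of osteocyte markers at day 21 was low in the same Het libraries as *Tnfsf11*. Osteocytes are the matrix-embedded descendants of OBs and a source of RANKL in bone. The summed RQ of 7 osteocyte markers in replicates 1 to 4 at day 21 was 1587, 1300, 1162 and 1340 in WT. In Het it was 1385, 893, 1062 and 837, so that Het replicates 2 to 4 were below every WT library here too. The summed RQ of 5 chondrocyte markers had the same pattern that day, at 8102, 3572, 3693 and 5804 in WT. For Het the chondrocyte sums were 8015, 1399, 1221 and 1165. Within replicates 2 to 4, 25.5% of all genes had Het wholly below WT at day 21. Among the 6 osteocyte markers tested, 1 was higher and 0 were lower in Het at days 14 and 21, beside 15.2% of all genes called. Their median log2 fold change was -0.42 beside -0.05 over all genes. Without replicate 1, 1 was higher and 4 were lower, beside 41.9% of all genes called. At day 21 alone 0 of the 6 were called (edgeR, with 1 at an unadjusted p under 0.05). The block called 1 lower, and 1 was higher and 1 lower without replicate 1. In these 3 fits 0.91%, 4.67% and 24.3% of all genes were called. *Sost*, which encodes the osteocyte product sclerostin, had a log2 fold change of -0.85 at days 14 and 21 together (edgeR adjusted p = 0.0625). Lymphocytes also make RANKL. Of 8 lymphocyte markers, *Cd3d*, *Cd3e*, *Cd3g* and *Cd8a* reached at most 1 count in any library, *Ms4a1* 4 and *Cd79a* 17, while *Cd4* reached 610 and was higher in Het at days 14 and 21 (2.05, edgeR adjusted p = 0.000211). The part of osteocyte, chondrocyte or lymphocyte markers in the *Tnfsf11* result was not tested.

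*Tnfrsf11b*, the decoy receptor, took the opposite course and was highest at day 8. RQ in WT replicates 1 to 4 was 864, 255.5, 225.6 and 404 at day 8, 264, 175.5, 175.7 and 198 at day 14, and 147, 135.5, 130 and 133 at day 21. In Het replicates 1 to 4 it was 994, 140, 128.5 and 394 at day 8, 205, 103, 220 and 200.4 at day 14, and 153, 144, 154 and 126.5 at day 21. Both replicate 1 libraries stood far above the rest at day 8, and by day 21 the 8 libraries lay close together.

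Over both genotypes *Tnfrsf11b* fell from day 8 to day 14 by 1.14 on the log2 scale (SE 0.340, edgeR adjusted p = 0.00836). Without replicate 1 it fell by 0.51 and was not called (edgeR adjusted p = 0.0703, beside 62.8% of genes called), without the Het replicate 1 of day 8 it fell by 0.69 (edgeR adjusted p = 0.0363), and without all libraries numbered 4 it fell by 1.19 (edgeR adjusted p = 0.0613). From day 14 to day 21 the change was -0.46 ± 0.338 (SE, edgeR adjusted p = 0.406), while an exact two-sided permutation test of mean RQ in the same 8 against 8 libraries (140 and 193) gave p = 0.00715.

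No difference between the genotypes was called for *Tnfrsf11b*. At days 14 and 21 its mean RQ was 163 ± 41.2 (SD) over 8 Het libraries and 170 ± 45.3 over 8 WT libraries, with a log2 fold change of -0.04 ± 0.337 (SE, edgeR adjusted p = 0.967) whose 95% interval ran from -0.74 to 0.66. The sign of this small difference turned under other scalings (0.01 to 0.06). Het was higher than WT in 5 of 8 pairs. At day 8 the log2 fold change was -0.08 (edgeR adjusted p = 0.995), and the ratio of mean RQ in Het to WT was 1.15 in replicate 1 and 0.749 in replicates 2 to 4.

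At day 8 chondrocyte markers were highest and lowest in the same libraries as *Tnfrsf11b*, but the match did not hold throughout. The summed RQ of *Acan*, *Col2a1*, *Col9a1*, *Col10a1* and *Sox9* at day 8 was 34450, 22200, 20180 and 25270 in WT replicates 1 to 4 and 33290, 5508, 6628 and 16900 in Het replicates 1 to 4. The 2 libraries with the highest sums also had the highest *Tnfrsf11b*, and the 2 with the lowest sums had the lowest *Tnfrsf11b*. Between these extremes, Het replicate 4 had a lower sum than WT replicates 2 and 3. Its *Tnfrsf11b* was higher, with an RQ of 394 against 255.5 and 225.6. At day 14 Het replicate 1 had a sum of 22880 and a *Tnfrsf11b* RQ of 205. Het replicates 3 and 4 of that day had sums of 1948 and 2572 and an RQ of 220 and 200.4. Of the 5 markers 0 were higher and 1, *Sox9*, was lower in Het at days 14 and 21 (log2 fold change -0.70). All 5 were lower with the replicate block or without replicate 1. The shares of all genes called were 15.2% in the first fit, 24.5% with the block and 41.9% without replicate 1. Their part in the *Tnfrsf11b* levels was not tested.

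The *Tnfsf11* to *Tnfrsf11b* ratio is given as *Tnfsf11* counts per 1000 *Tnfrsf11b* counts. It needs no housekeeping scale, since both counts come from the same library. In WT replicates 1 to 4 the ratio was 6.60, 13.8, 10.6 and 9.51 at day 8, 19.2, 17.7, 23.8 and 20.4 at day 14, and 172, 88.7, 87.0 and 109 at day 21. In Het replicates 1 to 4 it was 5.33, 15, 18.8 and 7.25 at day 8, 21.3, 26.4, 12 and 10.9 at day 14, and 121, 20.2, 24.4 and 22.9 at day 21. In WT each day lay wholly above the day before it, while in Het the ratios of days 8 and 14 overlapped and Het replicates 2 to 4 of day 21 lay within the day 14 range.

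**Figure D2:**
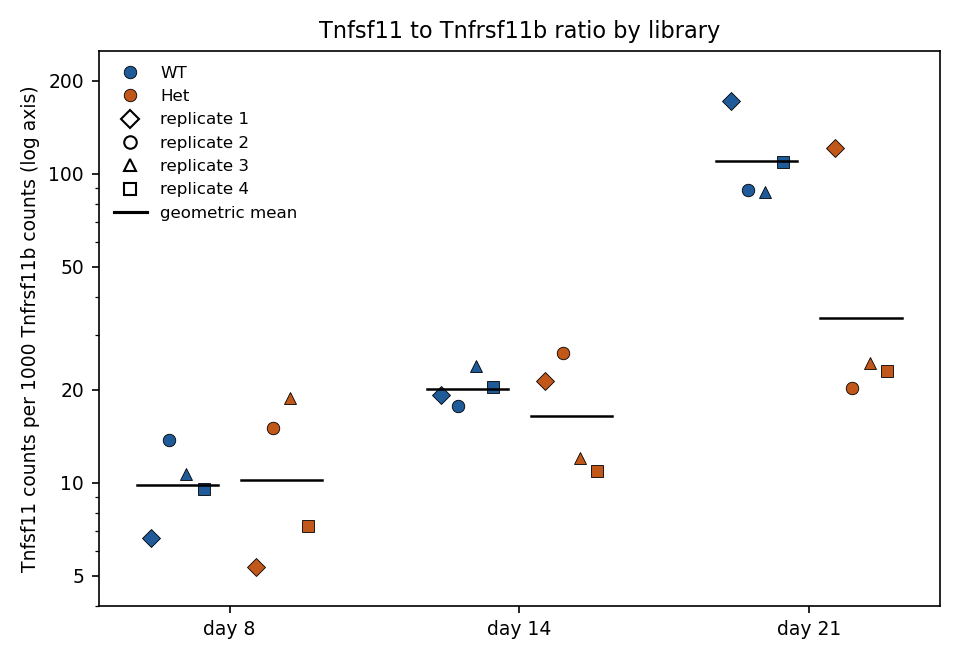
*Tnfsf11* counts per 1000 *Tnfrsf11b* counts (log axis) by day, with 1 point per library, blue for WT, orange for Het, the marker shape for the replicate number and a bar at the geometric mean of 4 libraries. At day 21 the 4 WT libraries sit between 87.0 and 172, Het replicate 1 sits at 121 and the other Het libraries sit between 20.2 and 24.4.

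The geometric mean of the ratio rose 1.82-fold from day 8 to day 14 over both genotypes (exact two-sided permutation p = 0.00855, adjusted p = 0.0171 over the 4 planned ratio comparisons, higher in 7 of 8 pairs). It rose 3.36-fold from day 14 to day 21 (exact permutation p = 0.00404, adjusted p = 0.0162, higher in 7 of 8 pairs). With libraries paired by number, both adjusted values were 0.0625 in the exact permutation test. Without replicate 1 they were 0.115, with folds of 1.48 and 2.62, against folds of 3.41 and 7.14 in replicate 1 alone.

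Within WT the geometric mean of the ratio went from 9.80 at day 8 to 20.2 at day 14 and 110 at day 21, a 2.06-fold and then a 5.45-fold rise (exact permutation p = 0.0286 for both, the smallest that 4 against 4 libraries allow). Within Het it went from 10.2 to 16.5 and 34.2, a 1.61-fold and a 2.08-fold difference (exact permutation p = 0.257 and 0.229). The folds in Het were 3.99 and 5.69 in replicate 1 and 1.19 and 1.485 in replicates 2 to 4, and those in WT were 2.91 and 8.97 in replicate 1 and 1.83 and 4.61 in replicates 2 to 4. These tests within a genotype were added after the values were seen.

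Over days 14 and 21 the geometric mean of the ratio was 23.7 for the 8 Het libraries and 47.1 for the 8 WT libraries, 0.504-fold with Het higher in 2 of 8 pairs. This difference was not called when libraries were permuted freely (exact permutation p = 0.135, adjusted p = 0.18), reached an adjusted exact permutation p of 0.0495 when they were permuted within each day, and stood at 0.0625 when they were paired by number. The fold was 0.882 in replicate 1 and 0.419 in replicates 2 to 4. At day 8 the ratio in Het was 1.04-fold that in WT (exact permutation p = 0.886). At day 21 alone, a comparison added after the values were seen, it was 0.311-fold, with Het lower in 4 of 4 pairs (exact permutation p = 0.114), 0.702-fold in replicate 1 and 0.237-fold in replicates 2 to 4.

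*Tnfrsf11a*, the receptor RANK, rose with culture time and was higher in Het at days 14 and 21. RQ in WT replicates 1 to 4 was 3.09, 1.68, 1.45 and 1.93 at day 8, 11.1, 5.82, 4.28 and 7.89 at day 14, and 13.1, 17.6, 18.9 and 17.5 at day 21. In Het replicates 1 to 4 it was 2.63, 5.20, 5.41 and 3.78 at day 8, 7.03, 16.2, 17.4 and 15.9 at day 14, and 17.5, 32.0, 29.5 and 42.9 at day 21. Het replicates 2 to 4 were above every WT library on each day, while Het replicate 1 was inside the WT range. Within replicates 2 to 4, libraries that did not overlap with Het higher were found for 8.56% of all genes at day 8, 18.5% at day 14 and 18.1% at day 21.

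Of the 5 members, *Tnfrsf11a* alone was called between Het and WT at days 14 and 21, beside 15.2% of all genes tested, and it was higher in Het by 0.93 ± 0.222 (log2 fold change, SE, 95% interval 0.46 to 1.39, edgeR adjusted p = 0.00915, higher in 7 of 8 pairs). The call held in all 24 fits that left out 1 library (adjusted p = 0.00169 to 0.0277), and it was lost without all libraries numbered 2, 3 or 4 (log2 fold change 0.84, 0.81 and 0.82, edgeR adjusted p = 0.151, 0.0973 and 0.214). Without replicate 1 the log2 fold change was 1.21 (edgeR adjusted p = 1.16e-06). The ratio of mean RQ in Het to WT was 1.02 in replicate 1 and 2.14 in replicates 2 to 4, so the difference lay mainly in replicates 2 to 4. In replicate 1 the ratio was 0.636 at day 14 and 1.33 at day 21, so Het was higher there only at day 21.

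On single days, 0 of 5 members were called, beside 0.631% of genes at day 8, 3.45% at day 14 and 0.91% at day 21 (edgeR). At an unadjusted p under 0.05 there were 1, 1 and 2 members, and DESeq2's Wald test called 1, 1 and 0. The *Tnfrsf11a* log2 fold change was 1.12 ± 0.340 at day 8, 0.99 ± 0.318 at day 14 and 0.86 ± 0.310 at day 21 (SE, edgeR adjusted p = 0.160, 0.0811 and 0.181). With the replicate block the value at day 14 was called (0.99, edgeR adjusted p = 0.0488, beside 9.7% of genes), and without replicate 1 all 3 days were called (1.49, 1.46 and 0.95, edgeR adjusted p = 0.000306, 2.13e-05 and 0.00072). In those fits without replicate 1, 17.3%, 29.1% and 24.3% of genes were called. Single libraries also decided the call: day 8 was called without Het replicate 1 (1.28, adjusted p = 0.0400), day 14 without WT replicate 1 (1.25, adjusted p = 0.0288) or Het replicate 1 (1.20, adjusted p = 0.0150), and day 21 without Het replicate 1 (1.05, adjusted p = 0.0437).

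Over time, *Tnfrsf11a* rose from day 8 to day 14 by 1.79 ± 0.236 (log2 fold change, SE, edgeR adjusted p = 1.78e-06) and from day 14 to day 21 by 1.17 ± 0.223 (edgeR adjusted p = 0.000931). The rise was called in each genotype, at 1.86 in WT and 1.73 in Het for the first step and 1.23 and 1.10 for the second (edgeR adjusted p = 0.000239, 0.000236, 0.0193 and 0.0453). The calls of the second step were close to the threshold. Of 24 fits that left out 1 library, 17 lost the call in Het (adjusted p up to 0.141), and 3 lost that in WT, those without WT replicate 2 or 3 of day 14 or WT replicate 3 of day 21 (adjusted p = 0.0672, 0.0708 and 0.0559). Without all libraries numbered 2, 3 or 4 both were lost (edgeR adjusted p = 0.123 to 0.405), and without replicate 1 both were called (1.58 in WT and 1.07 in Het, edgeR adjusted p = 1.15e-05 and 0.000524). Of all genes, 30.7% were called in WT and 35.4% in Het for the first step. The rise in Het minus that in WT was -0.13 ± 0.457 for the first step and -0.13 ± 0.440 for the second (SE, edgeR adjusted p = 1.00 for both), beside 0.0587% of genes called in the first step.

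**Figure D3:**
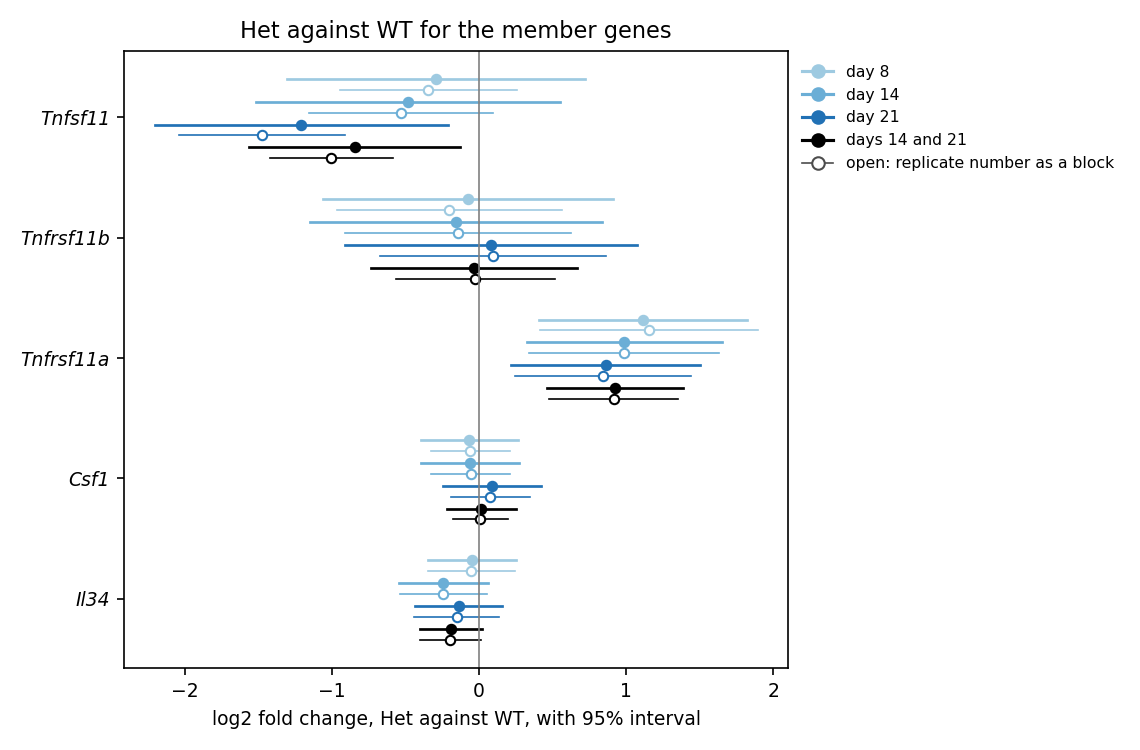
Log2 fold change of Het against WT for each member with its 95% interval, at days 8, 14, 21 and at days 14 and 21 together. Filled points are the fit without a replicate block and open points the fit with the replicate number as a block. *Tnfrsf11a* lies to the right of 0 at each day, *Tnfsf11* lies to the left with intervals that narrow under the block, and *Csf1* stays within 0.1 of 0.

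The protein RANK is carried by macrophages and osteoclast precursors rather than by OBs, and the macrophage markers moved with *Tnfrsf11a*. Osteoclast markers did not move as a set between the genotypes. Of 9 tested, 2 were higher, 1 was lower and 6 were not called in Het at days 14 and 21 (median -0.12). Of 15 macrophage markers, 14 were higher and 0 lower in Het at days 14 and 21, beside 7.15% of all genes higher and 8.01% lower. The median log2 fold change of the markers was 1.04 beside -0.05 over all genes. The higher markers included *Csf1r* (1.05), *Cd68* (0.92), the complement gene *C1qa* (1.18) and *Aif1* (1.30), with edgeR adjusted p = 0.00276, 0.00881, 0.00583 and 0.00346. The mannose receptor gene *Mrc1* was the one not called (0.59, edgeR adjusted p = 0.0528). All 15 were higher without replicate 1, beside 41.9% of all genes called. On single days 8, 6 and 0 of the 15 were called, all higher, at days 8, 14 and 21. The shares of all genes called were 0.631%, 3.45% and 0.91%. At an unadjusted p under 0.05 there were 15, 15 and 13 markers (edgeR).

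The summed RQ of the 15 macrophage markers ran from 255 to 500 in WT and 421 to 1129 in Het at day 8, from 1574 to 5058 in WT and 3497 to 8035 in Het at day 14, and from 6713 to 7764 in WT and 8893 to 19750 in Het at day 21. On each day the lowest Het library was replicate 1, as it was for *Tnfrsf11a*. Their part in the *Tnfrsf11a* difference was not tested, but *Tnfrsf11a* can be read per 1000 *Csf1r* counts, the CSF1 receptor that marks the same lineage.

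Per 1000 *Csf1r* counts, *Tnfrsf11a* had geometric means at days 8, 14 and 21 of 54.0, 39.6 and 39.9 in WT. In Het they were 57.2, 31.1 and 39.3. On this scale Het was 0.88-fold WT at days 14 and 21 (exact permutation p = 0.0541, n = 8 each, and 0.0391 with libraries paired by number), with Het higher in 1 of 8 pairs. At single days it was 1.06-fold at day 8, 0.786-fold at day 14 and 0.985-fold at day 21 (exact permutation p = 0.514, 0.0571 and 0.80, n = 4 each). From day 8 to day 14 it fell to 0.631-fold with no overlap between the days (exact permutation p = 0.000155, the smallest that 8 against 8 libraries allow). This ratio was added after the values were seen.

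**Figure D4:**
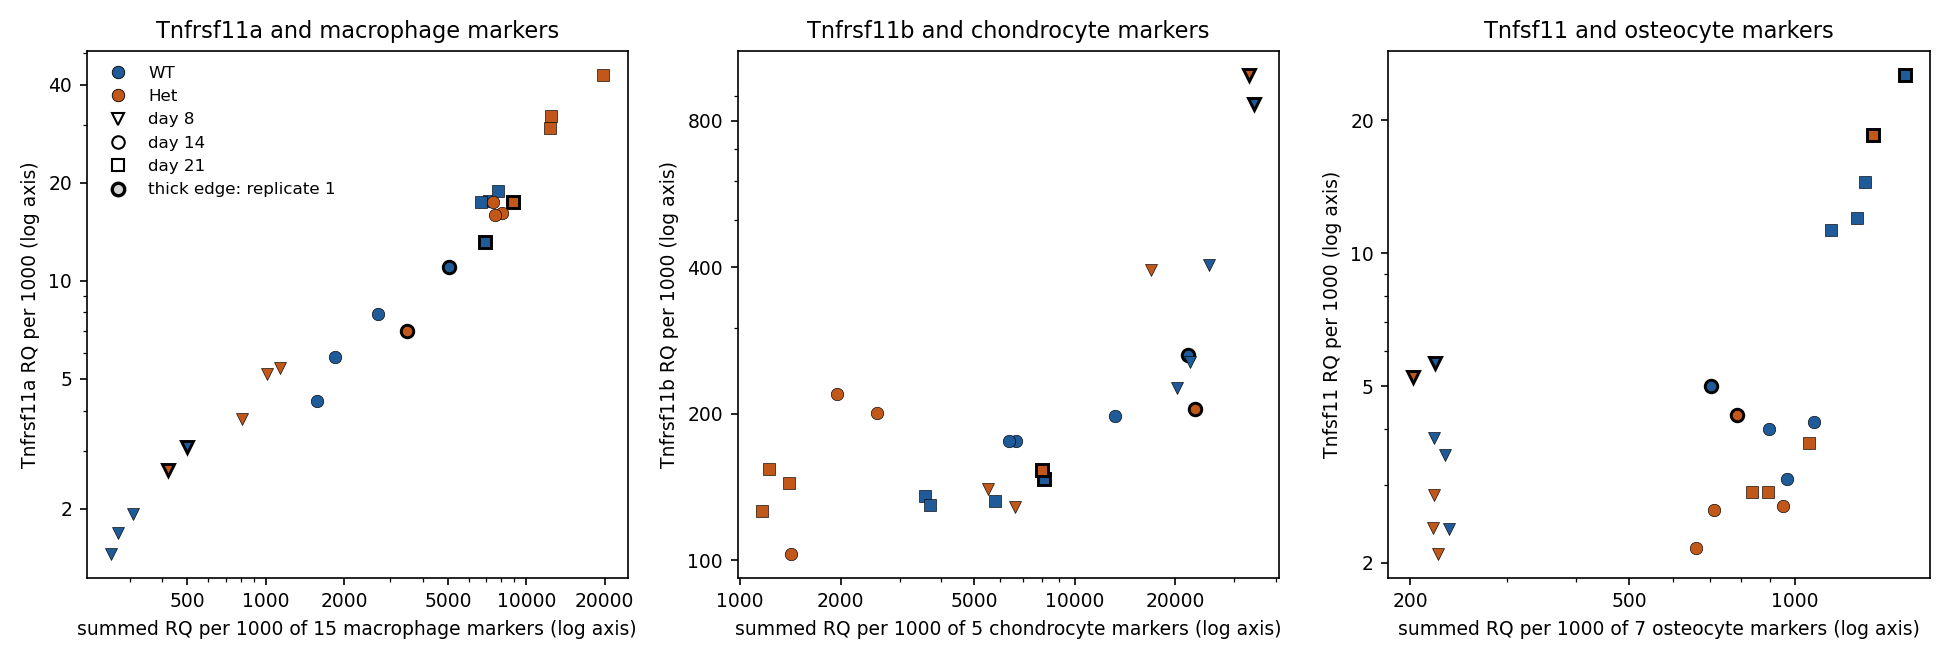
RQ of *Tnfrsf11a*, *Tnfrsf11b* and *Tnfsf11* against the summed RQ of macrophage, chondrocyte and osteocyte markers in the same library (all axes log), with 1 point per library, blue for WT, orange for Het, the marker shape for the day and a thick edge for replicate 1. *Tnfrsf11a* follows the macrophage sum across all 24 libraries, *Tnfrsf11b* is highest in the 2 day 8 libraries with the highest chondrocyte sums, and *Tnfsf11* is above 10 in the 5 day 21 libraries with the highest osteocyte sums.

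*Csf1* was abundant in every library and was lowest at day 14 in both genotypes. RQ in WT replicates 1 to 4 was 920.5, 564, 495 and 651 at day 8, 472, 434, 404 and 437 at day 14, and 506, 533, 549 and 516 at day 21. In Het replicates 1 to 4 it was 832, 507, 520.0 and 653 at day 8, 433, 481, 376.5 and 384 at day 14, and 619, 491, 521 and 606 at day 21. All day 14 libraries were below all day 8 and all day 21 libraries, which holds for 15.6% of all genes in the first step and 2.4% in the second, counting both directions.

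Of the 5 members, 4 were called between days 8 and 14, beside 47.6% of all genes, and 4 between days 14 and 21, beside 18%. *Csf1* fell by 0.59 on the log2 scale in the first step (SE 0.113, edgeR adjusted p = 0.000189) and rose by 0.34 in the second (SE 0.113, edgeR adjusted p = 0.0381). The second call was close to the threshold: it was lost in 10 of 24 fits that left out 1 library, each of them from day 14 or 21 (adjusted p up to 0.0754), without all libraries numbered 2, 3 or 4 (adjusted p up to 0.274) and with no filter on low counts (adjusted p = 0.0577).

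Between the genotypes *Csf1* did not differ by more than its error. Its mean RQ at days 14 and 21 was 489 ± 91.6 (SD) over 8 Het libraries and 481 ± 52.7 over 8 WT libraries, with a log2 fold change of 0.01 ± 0.113 (SE, edgeR adjusted p = 0.962). Its 95% interval ran from -0.22 to 0.25. On single days the log2 fold change was -0.07, -0.06 and 0.09, and the first 2 changed sign under other scalings.

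*Il34*, the other ligand of CSF1R, rose at each step. RQ in WT replicates 1 to 4 was 24.8, 24.3, 23.0 and 22.1 at day 8, 39.4, 33.8, 33.8 and 34.6 at day 14, and 43.8, 58.3, 53.9 and 49.6 at day 21. In Het replicates 1 to 4 it was 26.8, 21.1, 20.9 and 22.3 at day 8, 34.6, 20.9, 33.4 and 30.6 at day 14, and 48.8, 53.4, 51.5 and 33.2 at day 21. Days 14 and 21 did not overlap in WT, which held for 21.5% of all genes. In Het, replicate 2 of day 14 and replicate 4 of day 21 fell to the level of the day before.

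*Il34* rose by 0.49 ± 0.103 from day 8 to day 14 and by 0.59 ± 0.102 from day 14 to day 21 (log2 fold change, SE, edgeR adjusted p = 0.000439 and 0.000369). Scaled to total counts in place of the housekeeping genes, the first step was 0.22 and was not called (edgeR adjusted p = 0.0724). Both steps were called in each genotype (0.59 and 0.54 in WT, 0.39 and 0.65 in Het, edgeR adjusted p = 0.0034, 0.0217, 0.0393 and 0.0124). The first call in Het was lost in 6 of 24 fits that left out 1 library (each a Het library of day 8 or 14, adjusted p up to 0.122) and the second call in WT in 5 of 24 (each a WT library of day 14 or 21, adjusted p up to 0.0740). Both calls of the second step were lost without all libraries numbered 2, 3 or 4 (edgeR adjusted p = 0.0822 to 0.214), and the first in Het without those numbered 3 or 4 (edgeR adjusted p = 0.298 and 0.130). Het against WT at days 14 and 21 gave -0.19 ± 0.102 (SE, 95% interval -0.40 to 0.02, edgeR adjusted p = 0.212), with Het higher in 1 of 8 pairs. The antisense genes *Gm15894* and *Gm15895* share 22 and 75 exon bases with *Il34* and had 746 and 150 counts in all libraries together, against 280 to 1427 counts of *Il34* per library. The strand rule of the counting is not given in the sources used here, so reads from the shared bases cannot be told apart.

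Levels of different genes can be compared only per length. Per kilobase of exon, mean RQ at day 21 in WT was 99.6 for *Csf1*, 48.4 for *Tnfrsf11b*, 26.2 for *Il34*, 7.06 for *Tnfsf11* and 2.81 for *Tnfrsf11a*. At day 8 in WT the order was *Tnfrsf11b* (155), *Csf1* (124.5), *Il34* (12), *Tnfsf11* (1.72) and *Tnfrsf11a* (0.341). In Het at day 21, *Tnfrsf11a* (5.09 per kilobase) was above *Tnfsf11* (3.13), the reverse of the WT order. This was so in replicates 2 to 4 (4.93 to 7.17 against 1.29 to 1.67), while Het replicate 1 had the WT order (2.93 against 8.28). Ordered by mean RQ, the 6 groups of each gene formed overlapping steps. Neighbouring groups overlapped for all members except *Csf1*, in which WT at day 21 lay wholly above WT at day 14. These 2 groups did not overlap for 21.5% of all genes, counting both directions.

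Genes with the most similar course over the 24 libraries were found among 14889 genes by the root mean square (RMS) difference of centred log2 RQ. For *Tnfrsf11a* they were *Shtn1* (0.217), *Apobr* (0.221) and *Lat2* (0.236), beside a median of 1.35 over all genes compared. For *Tnfsf11* they were *Rarres1* (0.445), *Slitrk6* (0.496) and *Gprin3* (0.50), beside a median of 0.980. *Tnfsf11* had a median of 77 counts per library and *Tnfrsf11a* one of 150. For *Tnfrsf11b* they were *Lepr* (0.289), *Prrg4* (0.339) and *Mterf4* (0.384), beside 0.847. For *Csf1* they were *Smyd4* (0.125), *Zmiz1* (0.134) and *Pcp4l1* (0.136), beside 0.393, and for *Il34* they were *Crebl2* (0.164), *Gstm1* (0.171) and *Zkscan4* (0.175), beside 0.491. Libraries share depth and cell makeup, so these values describe similarity only.

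The signalling genes downstream of RANK and CSF1R were listed with *Csf1r* itself. Of 25 genes, all tested, 7 were higher and 0 lower in Het at days 14 and 21 (median log2 fold change 0.12 beside -0.05 over all genes), where 7.15% of all genes were higher and 8.01% lower. Under TMM, DESeq2 size factors and total counts, 13, 13 and 15 of the list were higher and 0 lower. *Csf1r* (1.05), the myeloid transcription factor gene *Spi1* (1.03) and the kinase gene *Syk* (0.81) had the largest differences, with edgeR adjusted p = 0.00276, 0.00902 and 0.00139. Others were *Fos* (0.55), a subunit of AP-1, and *Relb* (0.49), *Nfkb2* (0.37) and *Map3k14* (0.27) of the non-canonical NF-κB branch. *Csf1r* and *Spi1* are also among the macrophage markers above, so the signalling and macrophage lists overlap. *Traf6*, the adaptor that binds RANK, had -0.04 (edgeR adjusted p = 0.718) and *Nfatc1*, the transcription factor of osteoclast formation, had -0.04 (edgeR adjusted p = 0.858). The list had 14 higher and 1 lower without replicate 1, beside 41.9% of all genes called.

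Over time, 11 genes of this signalling list rose and 1 fell from day 8 to day 14 (median 0.10 beside 0.13 over all genes), and 13 rose and 0 fell from day 14 to day 21 (0.20 beside 0.06), steps in which 47.6% and 18% of all genes were called. *Spi1* rose by 2.71, *Csf1r* by 2.43 and the adaptor gene *Gab2* by 1.86 in the first step (log2 fold changes, edgeR adjusted p = 4.6e-08, 6.25e-09 and 2.21e-12), while *Jun* fell by 0.48. The first step depends on the scale, with 7 higher and 7 lower under TMM and 7 higher and 14 lower under total counts. These scales moved the median of all genes from 0.13 to -0.02 and -0.15, and the calls over all genes from 6995 higher and 2741 lower to 4824 and 5446 under TMM and 3571 and 7992 under total counts. *Tnfrsf11a* and *Il34* stayed above 0 and *Tnfrsf11b* and *Csf1* below 0 in this step under each scale.

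Of 20 genes for other ligands, receptors and processing enzymes of osteoclast support, 15 were tested. *Tnfsf10*, *Csf2*, *Csf3*, *Il6* and *Il1b* had too few counts, at most 25 in any library. At days 14 and 21, 2 were higher and 1 was lower in Het (median -0.03), beside 15.2% of all genes called. The cytokine gene *Tnf* was higher by 1.27 and *Sema3a*, which encodes a semaphorin that protects bone, by 0.62, and *Lgr4*, which encodes another receptor for RANKL, was lower by 0.69 on the log2 scale (edgeR adjusted p = 0.00576, 0.0185 and 0.0106). From day 8 to day 14, 6 rose and 5 fell, among them *Ptprz1* (5.70), *Tnf* (2.18) and *Cxcl12* (1.89), which encodes a chemokine for osteoclast precursors. From day 14 to day 21, 2 rose and 2 fell. Of all genes 47.6% and 18% were called in these steps, and under total counts the first split was 3 higher and 8 lower. *Lgr4* fell by 0.56 in the first step (edgeR adjusted p = 0.0096).

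The next list holds receptors and regulators through which OBs adjust *Tnfsf11* and *Tnfrsf11b*. Of 22 listed genes, 21 were tested, and 2 were higher and 8 lower at days 14 and 21 (median -0.11 beside -0.05 over all genes, with 8.01% of all genes lower and 7.15% higher). Under total counts the split was 2 higher and 5 lower. Taken singly, days 8, 14 and 21 each had 0 of the 21 called, beside 0.631%, 3.45% and 0.91% of all genes. At an unadjusted p under 0.05 there were 2, 7 and 11 (edgeR). *Vdr*, the vitamin D receptor gene, had -0.76, *Esr1*, the estrogen receptor gene, had -0.68 and the Wnt co-receptor gene *Lrp5* had -0.52 (edgeR adjusted p = 0.0434, 0.0128 and 0.0192). The prostaglandin receptor gene *Ptger2* (1.10) and the interleukin 6 receptor gene *Il6ra* (0.72) were higher (edgeR adjusted p = 0.0175 and 0.0162). *Pth1r*, the parathyroid hormone receptor gene, had -0.42 (edgeR adjusted p = 0.084).

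Over time, these regulators changed with 11 higher and 3 lower from day 8 to day 14 (median 0.27) and 7 higher and 1 lower from day 14 to day 21 (median 0.17), beside 47.6% and 18% of all genes called. The first step depends on the scale, with 9 higher and 7 lower under TMM, DESeq2 size factors and total counts and medians of 0.10, 0.13 and -0.02. *Lifr* (2.27), *Vdr* (1.95) and *Pth1r* (1.93) rose most among those called in the first step, with edgeR adjusted p = 1.59e-10, 2.01e-06 and 4.28e-09. *Il1r1* fell by 1.02 and *Osmr* by 0.93.

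Of 10 osteoclast markers, 9 were tested, and 2 were higher and 1 was lower in Het at days 14 and 21 (median -0.12), beside 7.15% of all genes higher and 8.01% lower. *Siglec15* (1.67) and the proton pump gene *Atp6v0d2* (0.87) were higher and the protease gene *Mmp9* (-1.27) was lower, with edgeR adjusted p = 0.0131, 0.0299 and 0.0113. *Siglec15* was near the floor, with a median of 2 counts per library, at most 19, and 0 in 5 libraries. *Acp5*, which encodes tartrate-resistant acid phosphatase, and *Ctsk*, which encodes cathepsin K, each had -0.12 (edgeR adjusted p = 0.515 and 0.505). *Calcr*, the calcitonin receptor gene of mature osteoclasts, was not tested and had 0 counts in 20 of 24 libraries. From day 8 to day 14, 6 osteoclast markers rose, among them the fusion gene *Dcstamp* (3.20, a median of 7 counts) and *Atp6v0d2* (3.09). *Acp5* had 0.05 in that step (edgeR adjusted p = 0.745). From day 14 to day 21, 3 rose. In these steps 47.6% and 18% of all genes were called. Summed RQ of the 10 markers at day 21 ran from 1057 to 1157 in WT and from 788 to 1117 in Het.

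Markers of other cells were read in the same way at days 14 and 21. There 15.2% of all genes were called (7.15% higher and 8.01% lower in Het), and 41.9% without replicate 1. Of 10 OB markers 0 were higher and 2 were lower in Het (median -0.40), namely *Bglap* (-1.54) and *Runx2* (-0.39), and 9 were lower without replicate 1. *Col1a1* had -0.39 (edgeR adjusted p = 0.159). Of 5 endothelial markers 4 were tested, with *Kdr* higher (1.00), and of the 8 lymphocyte markers 2 were tested, with *Cd4* higher as given above. No called gene was found among 2 tested adipocyte and 6 cell cycle markers, with 0 at an unadjusted p under 0.05 in edgeR, whereas 5 of the 6 cell cycle markers were higher in Het without replicate 1. All 6 cell cycle markers fell at each step of the culture over both genotypes together, beside 47.6% and 18% of all genes called. From day 14 to day 21, 6 were called lower in WT and 0 in Het, beside 8.45% and 4.74% of all genes called. At an unadjusted p under 0.05 there were 6 in WT and 4 in Het (edgeR).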

How the data were processed

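Raw counts per gene of bulk polyA RNASeq were used as deposited, 1 table per library for 24 libraries (2 genotypes, 3 days, 4 replicates). Before deposition the authors had libraries prepared with TruSeq kits. The submitters' processing notes name cutadapt 2.5, STAR 2.73a, Subread, featureCounts 1.6.4 and the build mm10. Strand and multimapping rules are not given in the sources used here. Identifiers of 54587 of 55335 genes matched GENCODE release 21 (GRCm38), which gave coordinates and overlaps.

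Counts were tested with edgeR 4.0.16 (glmQLFit and glmQLFTest, R 4.3.3, limma 3.58.1) in 1 fit of 6 groups over all 24 libraries, with the geometric mean of *Actg1*, *Actb*, *Mrfap1* and *Sdha* as library size, low counts removed by filterByExpr, and p-values adjusted (Benjamini-Hochberg, 0.05) over 20434 genes. Days 14 and 21 were averaged for Het against WT. Ratios, with 0.5 added to each count, were tested by exact two-sided permutation of mean log2 ratios (scipy 1.17.1) and adjusted over 4 comparisons. The self-test on simulated counts for Het against WT at days 14 and 21 recovered 74% of 100 genes changed 2-fold and 91% of 100 changed 4-fold among 20434 genes, with 8 false calls.

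Libraries were paired by replicate number, which the values bear out clearly only for replicate 1. Deviations from group means correlated at 0.194 to 0.789 where a WT and a Het library had 1 number (12 pairs, median 0.371). The median was -0.07 over 36 pairs with different numbers. Among replicates 2 to 4 alone, equal numbers gave 0.194 to 0.477 and different numbers 0.0745 to 0.436, with medians of 0.353 and 0.303, so most of the gap comes from replicate 1. For replicates 2 to 4, counts of pairs and paired tests therefore rest on the number in the label alone. What a number shares is not named in the labels. No replicates agreed within sampling noise (smallest chi-square per degree of freedom 4.93 in 36 pairs). P-values and 95% intervals of the fits measure the spread between cultures of pooled cells, some of which may share a pool.

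The named genes were the 5 members, 3 nearest genes for each (mean of at least 50 counts), up to 3 genes per list with the largest called log2 fold change in 2 comparisons, and 10 genes named whatever their values. *Cd3d*, *Cd3e*, *Cd3g*, *Cd8a*, *Ms4a1*, *Cd79a*, *Calcr*, *Jun*, *Mrc1*, *Cd68*, genes with too few counts and the remaining called list genes were added after their values were seen. One lymphocyte marker is not reported here. Members and lists were chosen with earlier results of these data known. Alternatives were DESeq2 1.42.0 (Wald test, size factors), TMM, total counts, filters, the replicate block, only the groups compared, permutation within strata, and leaving out libraries.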

Additional observations from a re-analysis of the deposited data

Results flagged for a closer look

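In groups of 4 libraries, 36 sets of values (5 members and the *Tnfsf11* to *Tnfrsf11b* ratio in 6 groups) were examined for 1 library far from the others (gap over range above Dixon's 95% critical value). Chance flags about 1 in 20 groups. *Tnfsf11* in Het replicate 1 of day 21 had an RQ of 18.51, above 2.88 to 3.73 in the others. The *Tnfsf11* to *Tnfrsf11b* ratio of the same library was 121.1 per 1000, above 20.2 to 24.4 in the others. *Tnfrsf11a* in Het replicate 1 of day 14 had an RQ of 7.027, below 15.9 to 17.4 in the others. *Il34* in WT replicate 1 of day 14 had an RQ of 39.37, above 33.8 to 34.6 in the others. *Tnfrsf11b* in Het replicate 2 of day 14 had an RQ of 103.1, below 200.4 to 219.9 in the others. Of these 5 values, 4 were from replicate 1.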

How the results depend on the processing

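Values are log2 differences or numbers of genes called, and the cause of each change was not tested. The replicate block is the fit with the replicate number as a block. It moved the count of genes called for Het against WT to 5005 at days 14 and 21, 315 at day 8, 1983 at day 14 and 955 at day 21, for the Het effect at days 14 and 21 minus that at day 8 to 67, for the day 14 to day 8 change, Het minus WT, to 19 and for day 21 against day 14 to 2686 in WT and 1701 in Het. It called *Tnfsf11* at days 14 and 21 (-1.0) and day 21 (-1.48) and *Tnfrsf11a* at day 14 (0.99), turned *Tnfsf11* at day 14 against day 8 (0.05) and the *Tnfrsf11b* day 14 to day 8 change, Het minus WT (0.056), and ended the calls of the ratio at day 14 against day 8 (0.86) and day 21 against day 14 (1.75). It changed no other call.

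DESeq2's Wald test called 458, 1712 and 793 genes between Het and WT at days 8, 14 and 21, 91 for the Het effect minus that at day 8, 52 for the day 14 to day 8 change, Het minus WT, 1694 for day 21 against day 14 in Het, and *Tnfrsf11a* at days 8 (1.11) and 14 (0.98). Total counts also called *Tnfrsf11a* at day 14 (1.10). TMM, DESeq2 size factors and total counts called 1281, 1360 and 1740 genes at day 14 and 419, 511 and 857 at day 21, and the first pair called 7 each for the day 14 to day 8 change. Of the genes called at days 14 and 21, 47.2% were higher in Het, against 59.6%, 63.3% and 77.5% on these scales, and of those called for day 21 against day 14, 67.3% were higher, against 45.2%, 51.5% and 50.4%. In the same order, Het against WT turned to 0.014, 0.022 and 0.062 for *Tnfrsf11b* at days 14 and 21, to 0.025, 0.020 and 0.016 at day 8 and 0.016, 0.020 and 0.054 at day 14 for *Csf1*, and to 0.043, 0.040 and 0.039 at day 8 for *Il34*, and *Tnfsf11* in WT at day 14 against day 8 to -0.036, -0.013 and -0.19. The day 14 to day 8 change, Het minus WT, turned to -0.0085 under TMM and -0.0005 under size factors for *Csf1* and to 0.015 under total counts for *Tnfrsf11b*, and total counts ended the *Il34* call at day 14 against day 8 (0.22, adjusted p = 0.0724). With no filter on low counts, 263, 92, 6 and 598 genes were called for Het against WT at days 14 and 21 each, for the day 14 to day 8 change and for day 21 against day 14 in Het, and the *Csf1* call at day 21 against day 14 was lost (0.34). With only the groups compared, 0 genes at day 8 (edgeR, with 1817 at an unadjusted p under 0.05), 34 at day 14, 368 at day 21, 3 for the day 14 to day 8 change, 4596 for day 14 against day 8 in Het, and 2749 in WT and 69 in Het for day 21 against day 14 were called, and *Tnfrsf11b* at day 21 against day 14 was called (-0.46). Permuted within days, the ratio at days 14 and 21 was called (-0.99).

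Leaving out libraries moved the counts for Het against WT between 86 and 8236 (days 14 and 21), 0 and 3405 (day 8), 6 and 5727 (day 14) and 4 and 4770 (day 21), for the Het effect minus that at day 8 between 0 and 928, for the day 14 to day 8 change between 0 and 822, for the day 21 to day 14 change between 0 and 13, for day 14 against day 8 between 3682 and 8814 in WT and 4559 and 10815 in Het, and for day 21 against day 14 between 1325 and 6142, 31 and 3530 in WT and 26 and 3696 in Het. Each highest value except 13 was that without replicate 1. Het against WT ranged for *Tnfsf11* from -1.40 to -0.67 (days 14 and 21), -0.70 to -0.36 (day 14) and -2.31 to -0.89 (day 21), for *Tnfrsf11b* from -0.15 to 0.061 (days 14 and 21), -0.98 to 0.49 (day 8) and -0.33 to 0.038 (day 14), for *Tnfrsf11a* from 0.81 to 1.21 (days 14 and 21), 0.84 to 1.49 (day 8), 0.68 to 1.46 (day 14) and 0.65 to 1.05 (day 21), for *Csf1* from -0.023 to 0.047 (days 14 and 21) and -0.23 to 0.14 (day 8), for *Il34* at day 8 from -0.13 to 0.0015, and for the ratio at day 8 from -0.23 to 0.37. The Het effect minus that at day 8 ranged from -0.52 to 0.95 for *Tnfrsf11b* and -0.13 to 0.24 for *Csf1*. Day 14 against day 8 ranged from -0.13 to 0.17 for *Tnfsf11* (-0.10 to 0.32 in WT, -0.32 to 0.24 in Het), -1.42 to -0.51 for *Tnfrsf11b* and 0.56 to 1.07 for the ratio, and day 21 against day 14 from 0.31 to 0.40 for *Csf1* and 1.39 to 2.01 for the ratio. The day 14 to day 8 change, Het minus WT, ranged from -0.42 to 0.14 for *Tnfsf11*, -0.64 to 0.83 for *Tnfrsf11b*, -0.35 to 0.13 for *Tnfrsf11a* and -0.20 to 0.17 for *Csf1*, and the day 21 to day 14 change from -0.51 to 0.26 for *Tnfrsf11a* and -0.033 to 0.24 for *Il34*.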
